A study of Mus musculus with 12 samples.

Results

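Layer 6 corticothalamic (L6 CT) neurons of the mouse cortex were examined in single nuclei from 12 animals at P21. A nucleus was taken as L6 CT when it held at least 3 UMIs (unique molecular identifiers, each standing for 1 captured transcript) of Foxp2 and at least 3 of Hs3st4, at least 1 of Slc17a7, none of Gad1 or Gad2, and at most 1 of Tshz2. Barcodes over 12000 UMIs or over 1% mitochondrial UMIs were left out first. Of 78743 barcodes, 71914 were within these limits, 23296 of those were excitatory (Slc17a7 present, Gad1 and Gad2 absent), and 2731 met the L6 CT rule. The 12 animals carried the S710fsX frameshift line of MYT1L, 6 of them WT and 6 Het at that allele, with 3 males and 3 females of each genotype. MYT1L is a zinc finger transcription factor of neurons, and loss of 1 copy in people causes a neurodevelopmental syndrome. All animals, controls included, had received AAV9 calling cards vectors in the brain as neonates, 1 of which encodes a nuclear tdTomato. The study describes the animals as generally littermates from several litters, and the labels do not say which animals shared a litter.

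L6 CT neurons send their axons to the thalamus and leave collaterals in layer 6 and layer 4, so that the cortex can scale its own thalamic input. They arise early among cortical projection neurons, under transcription factors such as Tbr1, Sox5 and Tle4, and their axon course depends on guidance receptors and adhesion molecules. In the adult cortex they are recognised by Foxp2, Syt6, Tle4 and Ntsr1, whereas layer 6b neurons carry Ccn2, Nxph4 and Cplx3, and intratelencephalic neurons of upper layers carry Cux2 and Rorb.

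The number of L6 CT nuclei ran from 66 to 332 per animal, and the summed UMIs of those nuclei from 334399 to 2014278. WT male 1 stood apart at the low end of both, with 66 nuclei against 150 or more in every other animal. No barcode was shared between animals, and 0 pairs of animals had identical sums. Libraries held 23429386 to 59958572 UMIs, and the shallowest deposited barcode of an animal held 1502 to 2182. Doublets were not removed beyond the upper limit on UMIs and the Gad1, Gad2 and Tshz2 terms. Of the members, 402 held exactly 3 Foxp2 UMIs, and 452 barcodes missed the rule by holding 2. At the Hs3st4 edge these numbers were 9 and 11. The Tshz2 term kept 263 further barcodes out, the Gad1 and Gad2 term 140, and the Slc17a7 term 2910. The last of these is larger than the set itself, so results are also given without the Slc17a7 term, an alternative chosen after the data were seen.

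The marker genes that the rule did not use followed the label. The levels here are CPM, in which the summed UMIs of each animal are scaled to a common total without correction for gene length. They are a description with no test, because the nuclei were selected on correlated genes. Syt6, a synaptotagmin of L6 CT neurons, had a median of 186 CPM over the 12 animals (105 to 247), against 2.72 CPM in other excitatory nuclei (at least 3 Slc17a7 UMIs, at most 1 each of Foxp2 and Hs3st4, 1133 nuclei). Tle4, a Groucho family corepressor, reached 631 CPM against 34.3. Zfpm2, a GATA cofactor, reached 2079 CPM against 139, and Garnl3 1265 CPM against 218. In each of these 4 genes the lowest L6 CT animal lay above the highest other excitatory animal. Tbr1, which specifies early corticothalamic neurons, was low in nuclei but showed the same order, at 41.5 CPM against 13.5. Ntsr1, the receptor whose Cre line labels these cells, was hardly captured, at 8.29 CPM against 3.86 with overlapping ranges.

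Markers of upper layer neurons were scarce. Cux2, a factor of upper layer neurons, was at 7.48 CPM in L6 CT nuclei against 126 CPM in other excitatory nuclei, and Rorb, a factor of layer 4, at 20.5 CPM against 130. A Ccn2 UMI was found in 1.76% of L6 CT nuclei, a Nxph4 UMI in 0.293% and a Cplx3 UMI in 0.513%. These layer 6b genes were nonetheless not lower than in the comparison groups, with Ccn2 at 3.09 CPM in L6 CT nuclei, 0 in other excitatory nuclei and 1.43 CPM in Tshz2-high nuclei. Nr4a2, a nuclear receptor of layer 6b and the most abundant gene of that list, was at 17.8 CPM in L6 CT nuclei, 8.97 CPM in other excitatory nuclei and 20.3 CPM in Tshz2-high nuclei. Nuclei with at least 4 Tshz2 UMIs (2604 nuclei), a second comparison group, lay between on several of these genes, with Syt6 at 4.82 CPM and Zfpm2 at 705 CPM. Tshz2 marks near-projecting neurons, and the near-projecting markers Rapgef3 at 18.4 CPM and Slc17a8 at 5.70 CPM were higher there than in L6 CT nuclei (0.329 CPM and 0). These nuclei also held Cux2 at 68.7 CPM, a gene of upper layers, and are called by their rule, Tshz2-high nuclei.

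**Figure D1:**
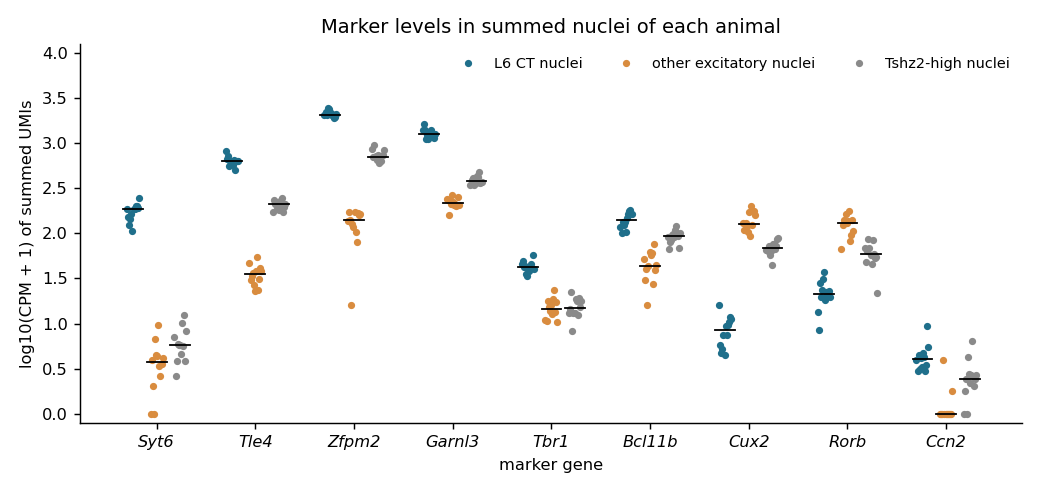
Marker levels in the summed nuclei of each of the 12 animals, on a log10(CPM + 1) axis, for L6 CT, other excitatory and Tshz2-high nuclei. Points are animals and black lines are medians. Syt6, Tle4, Zfpm2 and Garnl3 are higher in L6 CT nuclei in every animal, Cux2 and Rorb are lower than in other excitatory nuclei, and Ccn2 is under 10 CPM in all 3 groups.

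The members were not uniform in Syt6. A Syt6 UMI was found in 1472 of the 2731 nuclei and in none of the other 1259, and the median depth in the middle of the 12 animals was 6079 UMIs in the first and 5464 UMIs in the second. The genes that separated them most, chosen after their values were seen and described without a test, were lower where Syt6 was found. Galnt14, an O-glycosylation enzyme, was at 14.4 CPM in nuclei with Syt6 and 69.6 CPM in nuclei without it. Kcnab1, a subunit of voltage-gated potassium channels, was at 34.7 CPM and 175 CPM. Cacna2d3, a calcium channel subunit, was at 60.2 CPM and 189 CPM. In all 12 animals these 3 genes were lower in the nuclei with Syt6. In the other direction Cdh9, a cadherin, was at 157 CPM with Syt6 and 88.1 CPM without, and Dcc, the netrin receptor, at 1145 CPM and 781 CPM, again in 12 of 12 animals.

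The share of L6 CT nuclei was compared between genotypes first, to ask whether Het animals held fewer or more of them. In WT the lowest animal had 5.64% of excitatory barcodes as L6 CT nuclei, the median was 11.97% and the highest 13.1%. In Het the lowest had 9.73%, the median was 12.3% and the highest 16.3%. The groups overlapped between 9.73% and 13.1%, with the lowest value in WT male 1 and the highest in Het male 1. The mean difference, Het minus WT, was 1.66 percentage points, smaller than the spread between animals (two-sided exact permutation test over animals, p = 0.323). Without WT male 1 the difference was 0.641 percentage points (exact permutation p = 0.645). Within males it was 2.99 and within females 0.318 percentage points, and exchanging the sex labels within genotype gave an exact permutation p of 0.39 for the difference between the sexes. As a share of all barcodes within the limits, the mean difference was 0.791 percentage points (exact permutation p = 0.160). Without the Slc17a7 term it was 0.411 (exact permutation p = 0.636), with medians of 8.09% in WT and 7.96% in Het. A share of nuclei cannot tell fewer cells from fewer nuclei recovered.

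Depth per nucleus did not separate the genotypes. The median UMIs per L6 CT nucleus ran from 4877 to 6400 in WT and from 4922 to 6351 in Het (exact permutation p = 0.931), and the median number of genes from 2088 to 2419 and from 2147 to 2417 (exact permutation p = 0.747).

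Myt1l itself was read first as the targeted gene. Myt1l (chr12:29528384-29923213, mm10) ranged from 1147 to 1485 CPM in WT with a median of 1190, and from 1331 to 1494 CPM in Het with a median of 1389. These CPM, and those of the genes compared between genotypes below, are scaled by TMM factors. The groups overlapped, and the log2 fold change of 0.14 ± 0.07 (SE) did not pass the test (edgeR quasi-likelihood, adjusted p = 0.553). The counts do not tell the frameshift allele from the intact one, so the level does not check the genotype labels.

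Het and WT L6 CT nuclei were then compared over all genes on the sums per animal. Of 8737 genes tested, 39 were called (adjusted p below 0.05 and a log2 fold change beyond 0.2 in size), which is 0.446% of them. Of these 32 rose in Het (0.366%) and 7 fell (0.0801%), and 829 genes had an unadjusted p below 0.05. All 6 Het animals lay above the WT median in each of the 32 genes and below it in each of the 7. The 2 genotypes did not overlap at all in 18 of the 32 and in 4 of the 7, where 0.71% of all genes tested did not overlap. Both counts rest on the same values as the calls and are no separate evidence. The rises were modest, with log2 fold changes between 0.33 and 1.04 and a median of 0.49. The falls lay between -0.32 and -1.23.

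**Figure D2:**
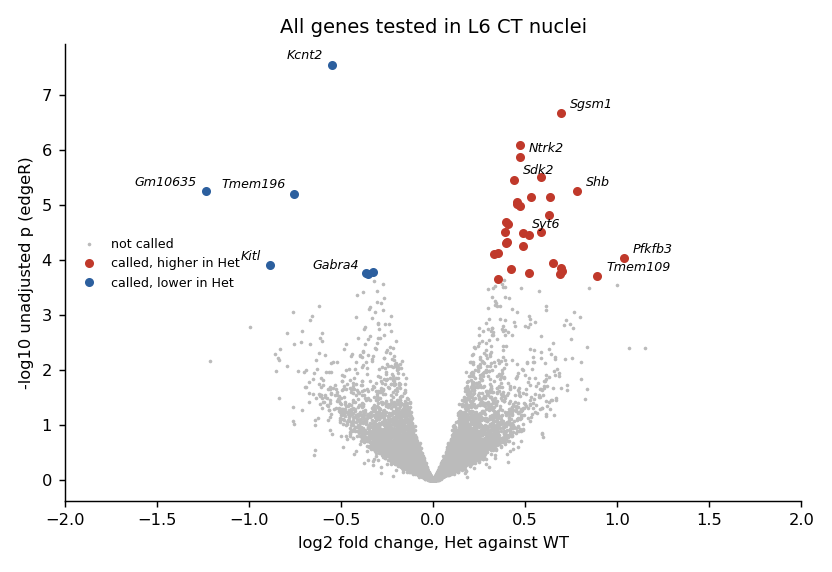
Log2 fold change of each gene tested in L6 CT nuclei, Het against WT, against -log10 of the unadjusted edgeR p. Red points are the 32 genes called higher in Het, blue points the 7 called lower and grey points all others. Kcnt2 has the smallest p, and most called genes lie on the right.

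Kcnt2, which encodes the sodium-activated potassium channel Slick, changed most clearly. It lies on the plus strand at chr1:140246158-140612067 (mm10). In WT it ranged from 492 to 670 CPM with a median of 531, and in Het from 341 to 405 CPM with a median of 377. Every Het animal lay below every WT animal. The log2 fold change was -0.55 ± 0.08 (SE, n = 6 animals per genotype, adjusted p = 0.000251, edgeR). The call held when each animal was left out in turn, with adjusted p from 9.03e-05 to 0.00231. It was lost in 2 of 17 other settings, at 66 nuclei per animal (log2 fold change -0.42, adjusted p = 0.101) and in nuclei with at most 2 glial and vascular marker UMIs (-0.55, adjusted p = 0.0538). The last limit counts Slc1a2, at a median of 884 CPM in members before TMM scaling, so it keeps nuclei with few Slc1a2 UMIs. The part of glial RNA in calls lost under it, here and below, was not tested.

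Among genes that rose, Ntrk2, Nptx1, Sdk2 and Bcl11b belong to families studied for synapses and layer identity. Ntrk2, the receptor TrkB for BDNF, ranged from 689 to 950 CPM in WT with a median of 764 and from 931 to 1271 CPM in Het with a median of 1105. Only the top of WT and the bottom of Het overlapped. Its log2 fold change was 0.47 ± 0.08 (SE, adjusted p = 0.00303, edgeR). The call was lost within the limits of the study on nuclei (0.33, adjusted p = 0.121), with at most 2 glial and vascular marker UMIs (0.24, adjusted p = 0.488) and without the Slc17a7 term (0.40, adjusted p = 0.0513). Nptx1, the secreted pentraxin that clusters AMPA receptors, had medians of 86.6 CPM in WT (64.1 to 109) and 132 CPM in Het (101 to 146), a log2 fold change of 0.53 ± 0.10 (SE, adjusted p = 0.00588, edgeR). The highest WT animal passed the lowest Het animal in Nptx1 as well. Nptx1 lost its call in 4 of 17 other settings, with equal nuclei per animal (log2 fold change 0.56, adjusted p = 0.118), with at most 2 glial and vascular marker UMIs (0.71, adjusted p = 0.112), in nuclei with a Syt6 UMI (0.42, adjusted p = 0.118) and in nuclei without (0.59, adjusted p = 0.146). Sdk2, an adhesion molecule of the immunoglobulin family, ranged from 348 to 491 CPM in WT (median 412) and from 522 to 655 CPM in Het (median 543), with no overlap (log2 fold change 0.44 ± 0.08 SE, adjusted p = 0.00511, edgeR), and lost its call with at most 2 glial and vascular marker UMIs (0.33, adjusted p = 0.266) and in nuclei without a Syt6 UMI (0.35, adjusted p = 0.191). Bcl11b, the zinc finger factor CTIP2 of subcortical projection neurons, ranged from 103 to 139 CPM in WT (median 125) and from 153 to 183 CPM in Het (median 167), again with no overlap (log2 fold change 0.46 ± 0.09 SE, adjusted p = 0.00662, edgeR).

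Syt6, the marker named for these nuclei, also rose. It ranged from 107 to 189 CPM in WT with a median of 154 and from 182 to 253 CPM in Het with a median of 199, so that WT male 1 alone of the WT animals reached the Het range. The log2 fold change was 0.49 ± 0.10 (SE, adjusted p = 0.0143, edgeR). Without WT male 3 the adjusted p was 0.0667 and without Het female 3 it was 0.0559, at log2 fold changes of 0.44 and 0.41, and within the limits of the study on nuclei it was 0.214, at 0.43. Syt6 was called in 10 of 15 other settings, and was also lost with Hs3st4 at 5 or more without Foxp2 (log2 fold change 0.70, adjusted p = 0.0861), with equal nuclei per animal (0.51, adjusted p = 0.108), with at most 2 glial and vascular marker UMIs (0.48, adjusted p = 0.161) and with the replicate number as a block (0.48, adjusted p = 0.0821). The 2 defining genes Foxp2 and Hs3st4 were used by the rule and are given as levels only, with Foxp2 medians of 1320 CPM in WT and 1225 CPM in Het and Hs3st4 medians of 5133 and 5165 CPM. Of the 12 L6 CT markers outside the rule, Syt6 and Bcl11b rose and none fell, where 0.366% of all genes tested were called higher. Of the 12, 6 had a positive log2 fold change, and 2 were lower at an unadjusted p below 0.05. Tle4 had a log2 fold change of -0.15 and Zfpm2 of -0.15, and neither passed the test. The summed level of the 12 markers was 48.5 to 58.4 UMIs per 10000 in WT and 50.2 to 54.6 in Het (exact permutation p = 0.299).

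The rise in Syt6 was also seen as more nuclei with a Syt6 UMI. In WT 35.8% to 60.6% of L6 CT nuclei held one, with a median of 49.1%, and in Het 53.4% to 64.5%, with a median of 58.7%. After each nucleus was thinned to 3000 UMIs, a step added after the data were seen, the shares were 23.8% to 34.0% in WT and 38.5% to 46.8% in Het, which did not overlap. Nuclei below 3000 UMIs were left out of thinning, 9 to 17 per WT animal and 10 to 37 per Het animal (exact permutation p = 0.0455). That p is for counts, and the number of L6 CT nuclei per animal also had a median of 181 in WT and 269.5 in Het. The share of nuclei left out was not tested. In other excitatory nuclei thinned in the same way the share was at most 1.72% in WT and 2.53% in Het. For Bcl11b the thinned shares were 22.4% to 34.5% in WT and 31.8% to 40.2% in Het. Over the 4 genes thinned, the adjusted exact permutation p was 0.00866 for Syt6, 0.0173 for Bcl11b, 0.251 for Tbr1 and 0.413 for Tle4. The shares rest on the same UMIs as the levels and are no separate evidence.

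**Figure D3:**
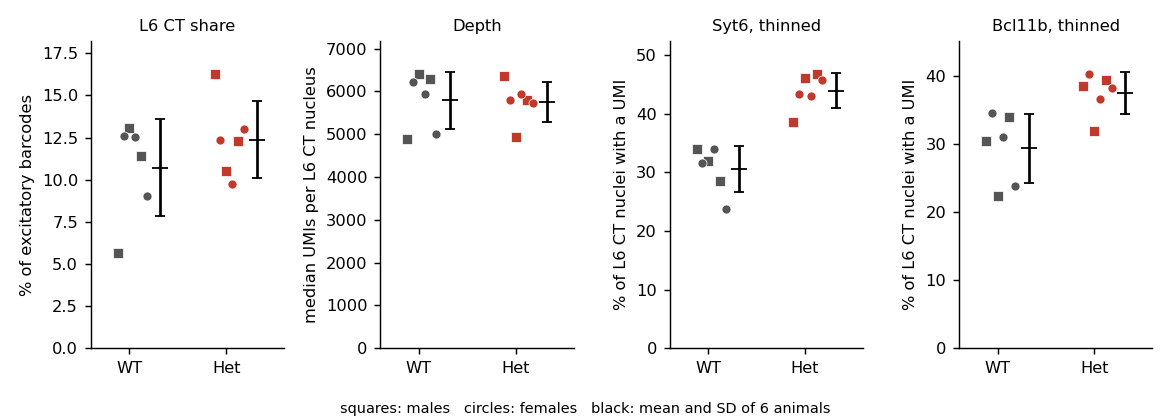
Share of L6 CT nuclei among excitatory barcodes, median UMIs per L6 CT nucleus, and the share of L6 CT nuclei with a Syt6 or a Bcl11b UMI after thinning to 3000 UMIs, for each animal by genotype. Squares are males, circles are females, and the black bar is the mean with its SD over 6 animals. The first 2 panels overlap between genotypes, and the Syt6 panel does not.

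To show where these genes start, the 250 bases upstream of 3 of them are printed from RefSeq promoters (GRCm38.p6). Kcnt2 was taken as the clearest fall, and Bcl11b and Syt6 as the layer marker genes that rose. Capitals mark AAGTT, the core of the motif bound by MYT1 family zinc fingers, read on either strand (AACTT on the other).
Kcnt2, chr1:140245468-140245717, plus strand: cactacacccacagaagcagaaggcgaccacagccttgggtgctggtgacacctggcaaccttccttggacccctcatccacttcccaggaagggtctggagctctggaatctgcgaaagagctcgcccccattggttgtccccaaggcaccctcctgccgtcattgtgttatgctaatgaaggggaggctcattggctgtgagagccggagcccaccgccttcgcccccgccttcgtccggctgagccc
Bcl11b, chr12:108003415-108003664, minus strand: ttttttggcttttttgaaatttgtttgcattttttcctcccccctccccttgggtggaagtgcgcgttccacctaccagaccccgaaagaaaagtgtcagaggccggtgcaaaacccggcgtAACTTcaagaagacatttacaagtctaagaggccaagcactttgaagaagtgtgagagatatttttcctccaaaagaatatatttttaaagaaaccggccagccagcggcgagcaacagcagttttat
Syt6, chr3:103575876-103576125, plus strand, 1 of 3 annotated starts: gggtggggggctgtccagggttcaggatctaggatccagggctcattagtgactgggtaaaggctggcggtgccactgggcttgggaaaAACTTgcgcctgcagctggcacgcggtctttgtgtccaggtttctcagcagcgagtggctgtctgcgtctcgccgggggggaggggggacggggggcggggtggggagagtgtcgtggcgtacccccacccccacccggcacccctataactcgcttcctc
The letters occurred once in the Bcl11b window and once in this Syt6 window and not in the Kcnt2 window or in those of the other 2 Syt6 starts. The windows of Sdk2, Ntrk2, Kcnd3, Kitl and Gabra4 were also read, are not printed, and held no match. Of 32851 promoters, 35.3% held the motif in these 250 bases, and of the 8563 promoters of genes tested 26.4% did. It was in 9 of 46 promoters of genes called higher (19.6%, 28 of the 32 genes matched) and in 2 of 7 promoters of genes called lower (28.6%, 6 of the 7 matched). A match of this kind is a description of the letters and not a binding site.

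The other genes with the smallest p among those that rose covered several functions. Hs3st2, a sulfotransferase of heparan sulfate, ranged from 286 to 412 CPM in WT and from 438 to 546 CPM in Het, with no overlap (log2 fold change 0.47 ± 0.08 SE, adjusted p = 0.00235, edgeR). Sgsm1, a regulator of small G proteins, had medians of 93.0 CPM in WT and 156 CPM in Het with overlap (log2 fold change 0.70 ± 0.11 SE, adjusted p = 0.000951, edgeR). Sik2, a salt-inducible kinase, had medians of 132 and 199 CPM (log2 fold change 0.59). Shb, an adaptor downstream of receptor tyrosine kinases, had medians of 22.7 and 40.7 CPM (log2 fold change 0.78) without overlap. Gdpd5, a glycerophosphodiester phosphodiesterase, had medians of 43.9 and 66.0 CPM (0.63). Rcan2, a regulator of calcineurin, had medians of 113 and 150 CPM (0.45). Nxpe4 had medians of 115 and 163 CPM (0.47). Gdpd5, Rcan2 and Nxpe4 did not overlap between genotypes either. Of these 7 genes, all were called in each of the 12 fits that left out 1 animal. In the other settings Hs3st2 was called in 15 of 17, Sik2 in 13 of 17, Sgsm1 and Nxpe4 in 12 of 17, Gdpd5 in 10 of 17, Shb in 10 of 16 and Rcan2 in 9 of 17. With at most 2 glial and vascular marker UMIs the log2 fold change of Sgsm1 was 0.21, of Sik2 0.18 and of Hs3st2 0.22, and none of these passed (adjusted p = 0.860, 0.837 and 0.571, edgeR).

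The remaining 18 genes that rose, named here after their values were seen, had log2 fold changes of 0.33 to 1.04 and adjusted p of 0.0113 to 0.0455 (edgeR). They were Pde4a, Stim2, Rps6ka2, Igsf21, Clstn3, Gng12, Galnt9, Sulf2, Srcin1, Spred2, Pfkfb3, Arid3b, Cbfa2t3, Ssbp3, Efhd2, Atp8b2, Fam53b and Tmem109. Among them Pde4a degrades cAMP, Stim2 senses calcium in the endoplasmic reticulum, Clstn3 and Igsf21 are synaptic adhesion proteins, Spred2 restrains Ras signalling and Pfkfb3 sets the rate of glycolysis. Sulf2, which trims heparan sulfate outside the cell, had medians of 53.1 and 71.9 CPM with no overlap. Some of the 18 were scarce, so their fold changes rest on few UMIs. Pfkfb3 ranged from 4.15 to 12.2 CPM in WT and from 10.4 to 16.1 CPM in Het. Tmem109 ranged from 6.60 to 9.16 CPM in WT and from 12.3 to 16.9 CPM in Het. The calls of these 18 genes were not followed gene by gene over the other settings.

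Besides Kcnt2, 6 genes fell. Tmem196, a membrane protein, ranged from 76.0 to 123 CPM in WT and from 45.7 to 74.4 CPM in Het, with no overlap (log2 fold change -0.75 ± 0.13 SE, adjusted p = 0.00588, edgeR). Gm10635, a long noncoding RNA, had medians of 29.9 and 12.7 CPM with overlap (log2 fold change -1.23 ± 0.22 SE, adjusted p = 0.00588, edgeR). Gm10635 was called in 5 of 13 other settings, and with Hs3st4 at 5 or more without Foxp2 its log2 fold change was -0.23 (adjusted p = 0.936). Kitl, the ligand of the receptor Kit, had medians of 29.1 CPM in WT and 17.6 CPM in Het with overlap (log2 fold change -0.89 ± 0.20 SE, adjusted p = 0.0379, edgeR). Gabra4, the alpha4 subunit of GABA-A receptors, ranged from 160 to 208 CPM in WT and from 120 to 150 CPM in Het without overlap (log2 fold change -0.35 ± 0.08 SE, adjusted p = 0.0432, edgeR). Scai, a repressor of serum response transcription, had a log2 fold change of -0.32, and Mlip, a lamin-interacting protein, of -0.36. Kitl and Scai were called in 5 and Mlip and Gabra4 in 4 of the 12 fits that left out 1 animal, and the highest adjusted p was 0.218 for Kitl, without WT male 3. In the other settings Tmem196 was called in 12 of 17, Scai in 8 of 17, Kitl in 7 of 14, Mlip in 6 of 17 and Gabra4 in 5 of 17.

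**Figure D4:**
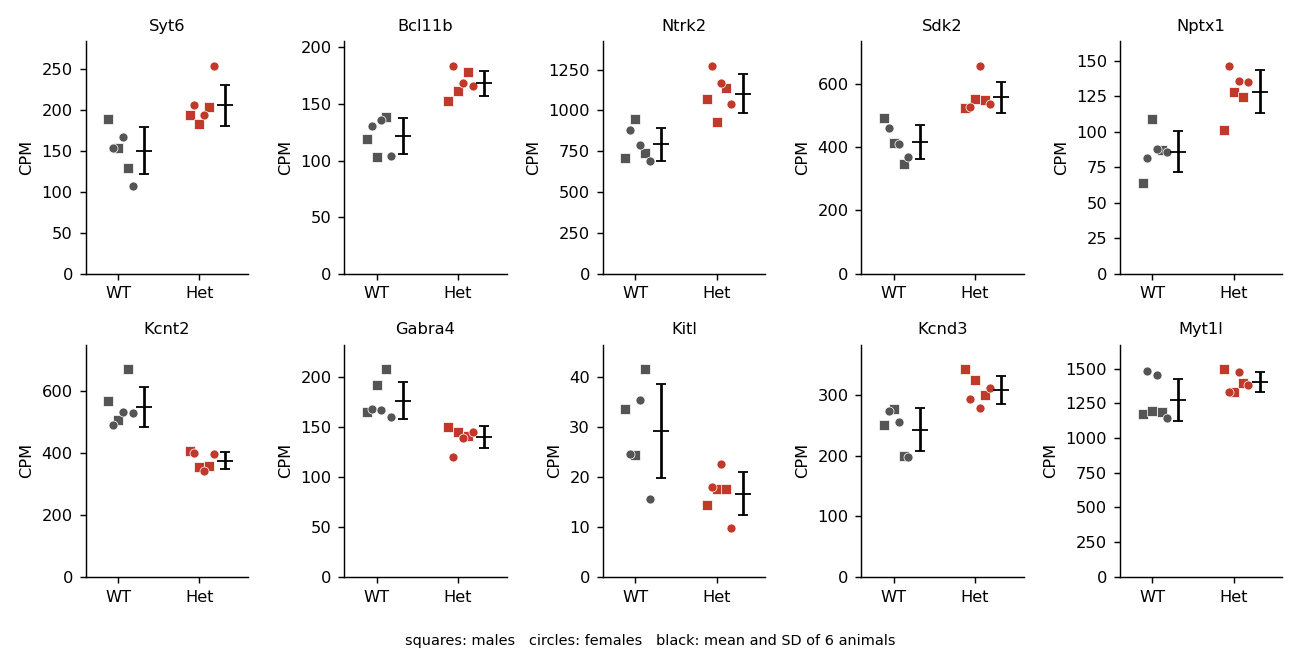
Level of 10 genes in the summed L6 CT nuclei of each animal, in CPM scaled by TMM factors, with each axis from 0. Squares are males, circles are females, and the black bar is the mean with its SD over 6 animals. Bcl11b, Sdk2, Kcnd3, Kcnt2 and Gabra4 do not overlap between genotypes, Syt6, Ntrk2, Nptx1 and Kitl overlap in part, and Myt1l overlaps.

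Voltage-gated and other potassium channels set the firing of these cells. Of 37 potassium channel genes tested, Kcnd3 rose, Kcnt2 fell and 35 did not pass, where 0.446% of all genes tested were called, and their median log2 fold change was 0.03 against -0.01 over all 8737 genes. Kcnd3, the A-type channel subunit Kv4.3, ranged from 198 to 277 CPM in WT and from 278 to 342 CPM in Het, with a log2 fold change of 0.35 ± 0.08 (SE, adjusted p = 0.0491, edgeR). This call was the last to pass and was kept in 2 of the 12 fits that left out 1 animal and in 7 of 17 other settings, and with sex as a covariate its adjusted p was 0.0531. Leaving out 1 animal gave 1 to 4 calls among the potassium channel genes, where 20 to 61 of all genes tested were called. The fit without the Slc17a7 term gave 5, where it called 104 of all 10897 genes tested. Equal nuclei per animal and the limit on glial and vascular UMIs each gave 0, where 8 of 4738 and 7 of 3233 genes were called.

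In the inhibitory receptor list, Gabra4 fell and the other 13 of 14 genes tested did not pass, where 0.0801% of all genes tested were called lower. Leaving out 1 animal gave 0 to 2 calls in this list, DESeq2 gave 2, and the limits of the study on nuclei gave 0. Over all genes tested these settings called 20 to 61, 57 of 8737 and 17 of 3889. The median of the list was -0.11, and 3 of the 14 had a positive log2 fold change, against 4225 of 8737 genes in all. Gabrb2, another subunit, named after its value was seen, was at -0.32 (adjusted p = 0.0514, edgeR). Among 14 ionotropic glutamate receptor genes edgeR called none. Grik3, a kainate receptor subunit, ranged from 359 to 494 CPM in WT and from 500 to 612 CPM in Het without overlap, at a log2 fold change of 0.30 (adjusted p = 0.0588, edgeR). DESeq2 called it (adjusted p = 0.0116), as did edgeR without the Slc17a7 term (adjusted p = 0.0215). Among 6 metabotropic receptor genes edgeR called none. Grm3 had a log2 fold change of -0.34 (adjusted p = 0.0923, edgeR). DESeq2 called it (adjusted p = 0.0380), and it was called in 7 of 17 other settings.

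Of 62 adhesion and synapse organizer genes tested, Sdk2 and Nptx1 rose, none fell and 60 did not pass, where 0.366% of all genes tested were called higher, with a median of -0.03. DESeq2 called 4 of the list, where it called 57 of all 8737 genes tested. Within the limits of the study on nuclei edgeR also called 4, where it called 17 of 3889. The list had 1 call with equal nuclei per animal, 1 with at most 2 glial and vascular marker UMIs and 0 in nuclei without a Syt6 UMI. Over all genes tested these settings called 8 of 4738, 7 of 3233 and 2 of 5791. Of 34 axon guidance genes none passed, and the median was -0.09. Ephb2 had the smallest p of that list, at a log2 fold change of 0.38 (adjusted p = 0.137, edgeR). It was called within the limits of the study on nuclei (0.70, adjusted p = 0.00753), under a lower ceiling on UMIs added after seeing the data (adjusted p = 0.0462) and with no filter on low counts (adjusted p = 0.0149). Of 15 deep-layer transcription factors, Bcl11b rose and 14 did not pass, where 0.366% of all genes tested were called higher. The Bcl11b call was lost within the limits of the study on nuclei (log2 fold change 0.52, adjusted p = 0.0870, edgeR), with at most 2 glial and vascular marker UMIs (0.45, adjusted p = 0.279) and in nuclei without a Syt6 UMI (0.37, adjusted p = 0.294).

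With edgeR none passed among 11 genes of the MYT1 family and its corepressors, 10 sodium and HCN channel genes, 16 calcium channel genes, 13 calcium pump and release genes, 30 transmitter release genes, 12 immature neuron genes, 18 TGF-beta and BMP genes and 7 immediate early genes, where 0.446% of all genes tested were called. Rcor1, a corepressor that works with REST, led the first list at 0.46 (adjusted p = 0.101, edgeR). Nalcn was at -0.22, Cacng2 at 0.34, Atp2b4 at 0.38, Cplx2 at 0.31, Dcx at -0.24 and Smad3 at 0.72. All 7 immediate early genes had positive log2 fold changes, with a median of 0.53 and Nr4a3 at 0.57 (adjusted p = 0.382, edgeR). None of these genes was called. DESeq2 called Cacng2 (adjusted p = 0.0378) and Atp2b4 (adjusted p = 0.0306), and edgeR without the Slc17a7 term called both (adjusted p = 0.0278 and 0.00934) and Rcor1 (adjusted p = 0.00251). Without that term 2 genes of the MYT1 list and 2 of the TGF-beta list were called, where 104 of all 10897 genes tested were, and Smad3 was called in 3 of 14 other settings.

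A list of 24 genes that the study names for P21, chosen by it on these samples, had 0 called by edgeR in L6 CT nuclei, with 7 higher and 9 lower at an unadjusted p below 0.05, against 460 higher and 369 lower of all 8737 genes. Lrrc4c, a netrin-G ligand of synapses, was closest, ranging from 1297 to 1653 CPM in WT and from 1163 to 1307 CPM in Het (log2 fold change -0.27, adjusted p = 0.0555, edgeR). DESeq2 called 3 genes of the list, Lrrc4c (adjusted p = 0.00355), Cdh9 (adjusted p = 0.0378) and Grm3 (adjusted p = 0.0380), and without the Slc17a7 term edgeR called 4. Over all genes tested these settings called 57 of 8737 and 104 of 10897. Cdh9 was at -0.52, Epha3 at -0.28, Robo2 at -0.18 and Slit2 at -0.45. Further guidance and adhesion genes of the list lay between Cntn5 at -0.27 and Epha6 at -0.04, with Epha7 at -0.19, Epha5 at -0.16, Cdh6 at -0.17 and Sema3a at -0.20. Rims1, a scaffold of the release site, was at -0.17, and the receptor subunits Gria4 and Glra2 were at -0.14 and -0.17. Positive values were found for Numbl at 0.38, Pak1 at 0.31, Smurf1 at 0.27, Etv5 and Ski at 0.21, Nfix at 0.18 and Ptn at 0.15. Of the 24, 9 had a positive and the others a negative log2 fold change. The study chose these genes on the same animals, some as higher and some as lower, so their directions are not independent evidence and no median is given over them.

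Whether the Het change was larger in L6 CT nuclei than elsewhere was tested as a difference of the Het effect within animals. Against other excitatory nuclei 0 of 8497 genes passed (edgeR, 0% called, 390 at an unadjusted p below 0.05). In simulated data this test recovered 33% of genes given a 1.5-fold difference, against 79% for the comparison of Het with WT. The differences were planted only in the more abundant genes, so recovery over all genes tested was not measured. The simulated sums of both classes used the spread of L6 CT nuclei and shared no effect of the animal. Against Tshz2-high nuclei 0 of 9453 passed (0%, 510 below 0.05). In the other 2 groups on their own, edgeR called 0 of 6496 genes in other excitatory nuclei (493 at an unadjusted p below 0.05) and 0 of 8601 in Tshz2-high nuclei (489 below 0.05). The first of these groups held 42 to 165 nuclei per animal. Widened to at least 1 Slc17a7 UMI after the data were seen, it held 665 to 1498 per animal, 20 genes rose and 1 fell of 14354, and the difference from L6 CT nuclei again had 0 calls of 12186 genes (644 at an unadjusted p below 0.05).

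The same animals stand in each comparison, so the values are given side by side. Kcnt2 had log2 fold changes of -0.55 in L6 CT nuclei, -0.31 in other excitatory nuclei, -0.28 in Tshz2-high nuclei and -0.36 in the widened group, where it fell (adjusted p = 0.0132, edgeR). Its difference between L6 CT and other excitatory nuclei was -0.25 ± 0.09 (SE, adjusted p = 0.996, edgeR). Ntrk2 had 0.47, 0.33, 0.26 and 0.33. Nptx1 had 0.53, 0.40, 0.60 and 0.49. Bcl11b had 0.46, 0.29, 0.15 and 0.23. Hs3st2 had 0.47, 0.14, 0.13 and 0.12. None of these genes is shown to change in L6 CT nuclei alone. Sex did not alter the genotype effect of any gene past the threshold (0 of 8737, 493 at an unadjusted p below 0.05, edgeR).

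Other cell types were checked through their markers in the summed L6 CT nuclei. Over 13 marker lists, no list differed between genotypes after adjustment (smallest adjusted exact permutation p = 0.679). All 6 Het animals lay above the WT median in the astrocyte, GABAergic, intratelencephalic and layer 5 ET lists. In the microglia list and the L6 CT list 0 did. The astrocyte list ran from 7.10 to 10.2 UMIs per 10000 in WT and from 8.44 to 10.3 in Het. Nearly all of it was Slc1a2, at a median of 884 CPM in members, whereas, again without TMM factors, Aqp4 was at 0.512 CPM and Gfap at 0 in 9 of 12 animals. The same list was 0.914 higher in Het in Tshz2-high nuclei (unadjusted exact permutation p = 0.0325) and 0.458 higher in other excitatory nuclei (unadjusted exact permutation p = 0.0433). The GABAergic list ran from 0.458 to 1.21 in WT and from 0.681 to 1.30 in Het, mostly from Adarb2, with Slc32a1 at a median of 0.662 CPM. Adarb2, the only gene of that list tested, was not called but had a log2 fold change of 0.62 at an unadjusted p below 0.05 (edgeR). The 2 intratelencephalic genes tested had a median of 0.47, with 1 of them below 0.05 and neither called. The oligodendrocyte list ran from 0.351 to 1.47 and from 0.543 to 1.46. The microglia list, which had the smallest unadjusted exact permutation p (0.106), ran from 0.271 to 0.542 and from 0.236 to 0.434. The intratelencephalic list ran from 0.154 to 0.538 and from 0.339 to 0.519. The layer 6b list ran from 0.169 to 0.357 and from 0.164 to 0.439. The part of these RNAs in the 39 calls was not tested.

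The count of calls and its direction depended on which nuclei entered. DESeq2 called 57 genes, 37 higher and 20 lower, and 26 of them were among the 39. Without the Slc17a7 term 104 genes were called, 78 higher and 26 lower, and 31 of the 39 were among them. Under the upper limit of the study of 6000 UMIs, with its other limits, 948 nuclei remained. There 17 genes were called, 8 higher and 9 lower, and 6 of them were among the 39. These limits do not recover the study's own set of nuclei. The study allowed 800 UMIs and ran doublet software, whereas the shallowest deposited barcode held 1502 and no such software was run here. With 66 nuclei from every animal 8 were called, all higher, and 5 of them were among the 39. With at most 2 glial and vascular marker UMIs 7 were called, all lower, and only 1 of them was among the 39. With Syt6-holding nuclei alone 26 genes were called, 14 higher and 12 lower, and among them Tmem196 had a log2 fold change of -0.88, Hs3st2 of 0.57 and Kcnt2 of -0.50. In nuclei without Syt6, Kcnt2 fell by 0.60 on the log2 scale and Ntrk2 rose by 0.52, and no other gene was called. Every one of the 39 kept its direction in all 12 fits that left out 1 animal, in which 20 to 61 genes were called. Those fits reuse the animals that gave the calls and are no separate evidence. The number of the 39 with the same direction was 39 with DESeq2 and 34 within the limits of the study. It was 34 with equal nuclei per animal and 28 with at most 2 glial and vascular marker UMIs. Genes not tested in a setting are not counted there.

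**Figure D5:**
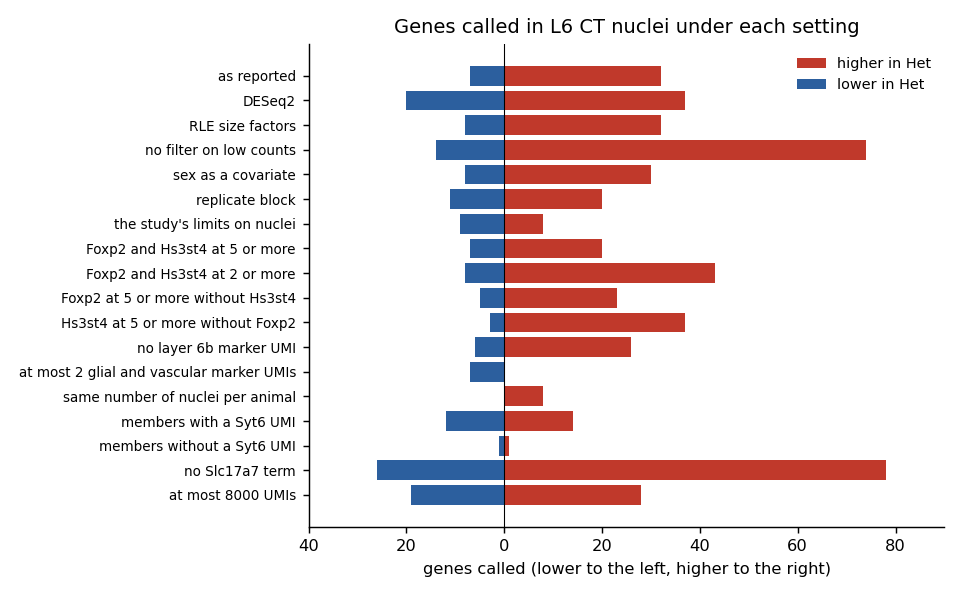
Number of genes called in L6 CT nuclei under each setting, with genes higher in Het to the right and lower to the left of 0. The reported setting has 32 and 7, and the balance between the directions shifts with the nuclei and the tool used.

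As a description of the genes called, those that rose had a median span of 99.7 kb (29 of 32 with a position) and those that fell of 88.6 kb, against 39.2 kb over the 8492 genes tested that had a position.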

How the data were processed

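Nuclei of P21 cortex from 12 mice were sequenced after split-pool barcoding (Scale Biosciences). The authors ran the ScaleRna workflow against the mm10 genome and deposited an unnormalized UMI matrix for each animal. The deposited values were handled like expected counts: 92.3% of entries are exactly whole (no tolerance), the rest are fractions, and how the fractions arose is not given in the sources used here. Per the labels, Seurat 4.3.0 and DESeq2 1.38.3 were also used.

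UMIs of the L6 CT nuclei were summed per animal, with tdTomato left out, and rounded. Genes passing filterByExpr were tested with edgeR 4.0.16 (TMM, robust quasi-likelihood test, genotype as the only term, Benjamini-Hochberg adjustment), as the sums of other nuclei were. The difference of the Het effect used a term for each animal. DESeq2 1.42.0 was an alternative. Shares and depths were compared by exact permutation of 6 against 6 animals, whose smallest two-sided p is 0.00216 (scipy 1.17.1). Scripts were tested on simulated data. Positions follow GENCODE for mm10, matched on 54587 of 55335 identifiers.

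The members and gene lists were chosen with earlier results of these data known. The genes named are Myt1l, Syt6, the 12 called genes with the smallest p in each direction, up to 4 called genes of each list or else its gene with the smallest p, and genes the study names, some of which are not reported here. p-values measure the spread between animals.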

Additional observations from a re-analysis of the deposited data

Results flagged for a closer look

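Among 182 groups of 6 animals examined, 13 held an animal that lay far from the other 5 by Dixon's criterion, which chance gives in about 1 of 20 groups. Of the genes called in L6 CT nuclei, Sdk2 reached 655 CPM in Het female 2, against 522 to 552 CPM in the other Het animals. Syt6 reached 253 CPM in Het female 3, against 182 to 206 CPM. Gabra4 was lowest in Het female 1, at 120 CPM against 139 to 150 CPM, and Pfkfb3 in Het male 2, at 10.4 CPM against 14.9 to 16.1 CPM. In WT, Clstn3 reached 97.7 CPM and Spred2 223 CPM in WT male 1, the animal with the fewest nuclei, and Srcin1 was lowest in WT female 3 at 147 CPM. Among genes not called, Grik3 was lowest in WT female 3 at 359 CPM, Rims1 was highest in WT male 3 at 2801 CPM and Epha3 was highest in Het female 2 at 121 CPM. In Het male 1 the intratelencephalic list was highest, at 0.519 UMIs per 10000, and the striatal list was lowest, at 0.372. The thalamic list was highest in Het female 3, at 0.162 UMIs per 10000.

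The tdTomato transcript of the injected vector, which entered no comparison of genes, was present in at least 28.8% of the L6 CT nuclei of every animal. Its share ran from 28.8% to 69.3% in WT and from 36.2% to 59.3% in Het (exact permutation p = 0.840). No uninjected animal was analysed here.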

How the results depend on the processing

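Against 39 genes called between Het and WT in L6 CT nuclei, 88 were called with no filter on low counts, 17 within the limits of the study on nuclei, 7 with at most 2 glial and vascular marker UMIs, 8 with the same number of nuclei per animal, 2 in nuclei without a Syt6 UMI and 104 without the Slc17a7 term. The last 2 settings were chosen after seeing the data. Leaving out 1 animal gave 20 to 61 calls, with 20 without WT male 3, 61 without WT male 2, 24 without Het female 1 or 2 and 25 without WT female 3 or Het male 3. Fewer genes were tested with the limits of the study (3889) and with at most 2 glial and vascular UMIs (3233), and beyond this the cause was not tested.

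With no filter the difference of the Het effect had 7 calls against other excitatory nuclei and 13 against Tshz2-high nuclei, and the sex by genotype interaction 12. Leaving out 1 animal gave 0 to 1, 0 to 2 and 0 to 8 calls.

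Some genes not called turned direction. Etv5 was at -0.081 and Bcl2 at -0.11 within the limits of the study. Epha6 was at 0.12 and Ptn at -0.041 with Foxp2 and Hs3st4 at 5 or more, and Ptn at -0.17 with Foxp2 alone at 5 or more. With at most 2 glial and vascular UMIs Nalcn was at 0.00198, Pak1 at -0.089, Nfix at -0.031 and Ski at -0.15. With equal nuclei Epha6 was at 0.16 and Ski at -0.029. Epha6 was at 0.056 with a Syt6 UMI and 0.015 without the Slc17a7 term, and Robo2 at 0.018 without a Syt6 UMI. Leaving out 1 animal moved Epha6 from -0.16 to 0.12, the difference in median UMIs per nucleus from -212 to 137, in median genes from -11.9 to 63.7, and in the summed lists per 10000 UMIs from -0.0333 to 0.0217 (layer 6b), -0.0101 to 0.00784 (near-projecting), -0.00558 to 0.0253 (thalamic) and -0.0429 to 0.203 (oligodendrocyte). The difference in share stayed between 0.641 and 2.18 percentage points.

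With the replicate number as a block 31 genes were called, 20 higher and 11 lower, and 23 of the 39 were among them. Of the genes named, Syt6 (adjusted p = 0.0821), Gabra4 (0.0691), Scai (0.0695), Mlip (0.0587) and Kcnd3 (0.0592) were not. The numbers were not taken to pair the animals, since no label says what they share and 2 of the 6 correlations of deviations were below 0.1 (female 3 at 0.0724 and male 1 at -0.00702, the others 0.115 to 0.226).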
